A study of Mus musculus with 6 samples.

Results

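The Ly6c2/Plac8 cells of injured and uninjured mouse quadriceps are described here, a class chosen by its own transcripts as monocytes. A cell barcode with at least 500 gene UMIs (unique molecular identifiers, each standing for 1 captured transcript) was a member by 5 sums of raw UMIs. It needed at least 2 UMIs of Ly6c2 and Plac8 together and at least 3 of Tyrobp, Fcer1g and Lyz2. It could hold at most 1 UMI of the complement genes C1qa, C1qb and C1qc, at most 1 of Cd209a and Flt3, and at most 2 of Ngp, Ltf, Camp and Retnlg. The rule left 72 cells of 8258: 23 of 3161 in the critical library, 33 of 2902 in the subcritical library and 16 of 2195 in the uninjured library. Since these 14 genes chose the members, their levels are given as a description, with no test.

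All mice were C57BL/6 wild-type males aged 2 to 3 months, killed at day 7. The critical group had a 3 mm volumetric muscle loss (VML) defect in the left quadriceps, the subcritical group a 2 mm defect of that muscle, and the uninjured group no defect. Per the labels, whole quadriceps were digested to single cells, a hashtag antibody marked each animal, and all 4 animals per group were then combined for panel staining and loaded as a single library. Group, pool, staining tube and library therefore cannot be told apart, and the hashtags are the only way back to the animals. Cells, transcripts and antibodies were counted together in the same droplets (CITE-seq).

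Ly6C-high monocytes are the inflammatory monocytes of mouse blood. They leave the bone marrow by the chemokine receptor CCR2, enter damaged tissue within days, and there become macrophages or antigen-presenting cells, losing Ly6C and gaining C1q, MHC class II or both on the way. In injured muscle they clear debris first and later serve repair. Ly6c2 codes for the surface protein Ly6C2, Plac8 for a small cysteine-rich protein of myeloid and lymphoid cells, and Lyz2 for lysozyme.

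Animals and proteins were read from short DNA tags carried by the antibodies. The hashtags that name the 4 animals of each pool, and the tags of the antibodies on which the protein results turn, are printed 5′ to 3′ in capitals as the deposited antibody table gives them.
Hashtag_1: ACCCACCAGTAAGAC
Hashtag_2: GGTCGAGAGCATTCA
Hashtag_3: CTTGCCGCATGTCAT
Hashtag_4: AAAGCATTCTTCACG
Ly-6C: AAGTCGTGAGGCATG
I-A_I-E: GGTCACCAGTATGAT
CD206_MMR_: TCAACTCGGTGTTGC
CD24: TATATCTTTGCCGCA
CD63: ATCCGACACGTATTA
Each tag is 15 bases long. Ly-6C marks the inflammatory monocyte, I-A/I-E is MHC class II protein, CD206 is the mannose receptor of tissue macrophages, CD24 is a small mucin of immature blood cells, and CD63 is a tetraspanin of late endosomes.

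The libraries held 7138662 gene UMIs in critical, 4954129 in subcritical and 5681346 in uninjured muscle. Members were shallow in both injured libraries, with medians of 1046 UMIs in critical and 850 in subcritical cells, against 7313.5 in uninjured cells. Summed over members this gave 35284, 39759 and 167323 UMIs. A single hashtag was called in 21, 27 and 13 of them, several in 1, 1 and 0, and none in 1, 5 and 3. Between 10 and 16 barcodes were shared by any pair of libraries, none of them a member. Of the barcodes that met every other term, 11, 11 and 3 held 1 UMI of Ly6c2 and Plac8 and stayed outside, while 10, 8 and 1 held exactly 2 and entered.

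Checked against the marker lists, the name monocyte held only in part, so the class is called Ly6c2/Plac8 cells. The 11 monocyte markers outside the rule were all detected in each library, with 53 UMIs in critical, 139 in subcritical and 476 in uninjured members. Per cell that was a median of 2 (0 to 11), 2 (0 to 39) and 21.5 (0 to 92). Ccr2, which codes for the receptor that monocytes use to leave marrow, gave only 2, 1 and 5 UMIs. Ly6c2 itself was found in 11 of 23, 23 of 33 and 15 of 16 members, and the others entered through Plac8. Lyz2 was found in 19, 27 and 14 members.

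Plac8 UMIs were also found in barcodes that were not myeloid by their counts. Barcodes with at least 20 UMIs of Col1a1, Col1a2 and Col3a1 and none of Tyrobp or Fcer1g, which should lack both genes, held a Plac8 UMI in 10.9% of 944 critical, 8.98% of 757 subcritical and 4.70% of 149 uninjured cells. Ly6c2 was found in 0.318%, 0.132% and 0.671% of the same cells, whose median depths were 2893, 2194 and 4504 UMIs. Lyz2, a myeloid gene of the rule, was found in 30.5%, 21.8% and 0.671% of them. Whether these UMIs were the cells' own was not tested. Among members the shares with a Ly6c2 UMI were 47.8%, 69.7% and 93.8%.

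All 6 T cell, 3 muscle fibre and 2 red blood cell markers were at 0 in members of every library. Of 9 neutrophil markers, 3 were found in critical, 4 in subcritical and 6 in uninjured members, with 3, 46 and 216 UMIs in 3 of 23, 3 of 33 and 10 of 16 cells. The rule itself limits 4 of these markers, and Ly6g was at 0. Of 10 natural killer markers only Nkg7 was found, with 10 UMIs in critical, 10 in subcritical and 62 in uninjured members. Of 5 B cell markers, Cd79b and Ighm were found, with 9, 13 and 50 UMIs together in 7 of 23, 11 of 33 and 10 of 16 members, while Cd79a, Ms4a1 and Igkc were at 0. Plasmacytoid dendritic markers came to 40, 13 and 0 UMIs, with 5, 3 and 0 of the 5 genes found. Of 6 conventional dendritic markers, 3 were found in critical members, with 6 UMIs in 6 of 23 cells. None was found in subcritical or uninjured members, and the rule itself limits Cd209a and Flt3. The 7 macrophage markers came to 83, 52 and 41 UMIs in 15 of 23, 19 of 33 and 3 of 16 members. Among these the rule limits the C1q genes. The 4 fibroblast markers came to 314, 294 and 6 UMIs, of which 206, 279 and 3 lay in a single cell.

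The members divided into 5 kinds, which were set after their transcripts had been seen and are a description only. Granule cells held at least 5 UMIs of Mpo, Elane, Prtn3 and Ctsg, the primary granule proteins made by marrow precursors of granulocytes and monocytes. Collagen-rich cells held at least 20 UMIs of Col1a1, Col1a2 and Col3a1. Another kind held at least 2 UMIs of Siglech, Ccr9 and Cox6a2, genes typical of plasmacytoid dendritic cells. In class II-rich cells, Cd74, H2-Aa, H2-Ab1 and H2-Eb1 made up at least 2% of the UMIs, and the rest met none of these terms. A cell was placed in the first of these kinds whose term it met.

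The libraries differed in which kind led. Class II-rich cells were 11 of 23 members (47.8%) in critical muscle, 5 of 33 (15.2%) in subcritical muscle and 1 of 16 (6.25%) in uninjured muscle. Cells of none of the 4 named kinds were 5 of 23 (21.7%), 22 of 33 (66.7%) and 5 of 16 (31.3%). Granule cells were 1 of 23, 3 of 33 and 10 of 16. The Siglech kind held 4, 2 and 0 cells and the collagen-rich kind 2, 1 and 0.

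**Figure D1:**
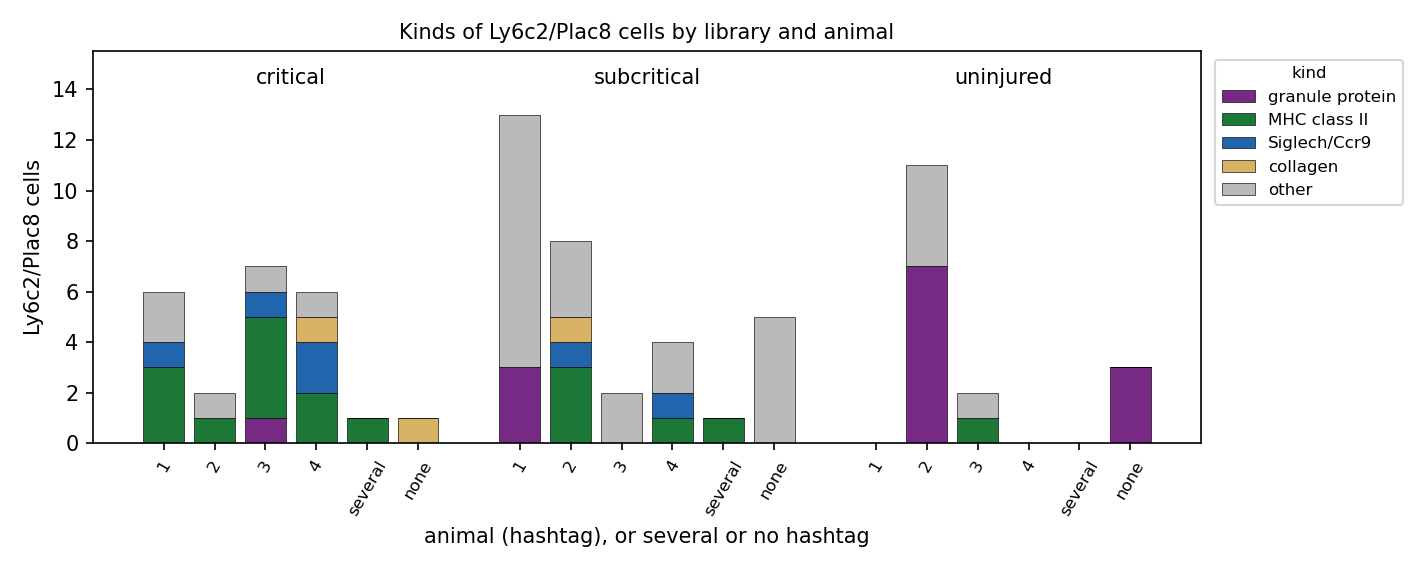
Number of Ly6c2/Plac8 cells of each kind (stacked bars) in every critical, subcritical and uninjured animal, with cells of several or no hashtags in bars of their own. Class II-rich cells were found in all 4 critical animals, while 10 of the 13 members of subcritical animal 1 were of none of the named kinds.

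The class II share of a cell's UMIs was close to all or nothing. It ran from 4.38% to 10.5% (median 7.79%) in the class II-rich cells of critical muscle and from 3.38% to 9.88% (median 4.17%) in those of subcritical muscle, and was 5.08% in the uninjured one. Among the cells of none of the named kinds the highest share was 0.734% in critical, 1.33% in subcritical and 0.0287% in uninjured muscle. Around the limit of 2%, only 1 of these cells, in the subcritical library, lay between 1% and 3%. The Lyz2 share of class II-rich cells varied, with a median of 0.899% of UMIs (0% to 3.43%) in critical and 0.980% (0% to 4.43%) in subcritical cells. Cells of none of the named kinds had Lyz2 medians of 2.73% in critical and 3.17% in subcritical muscle.

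**Figure D2:**
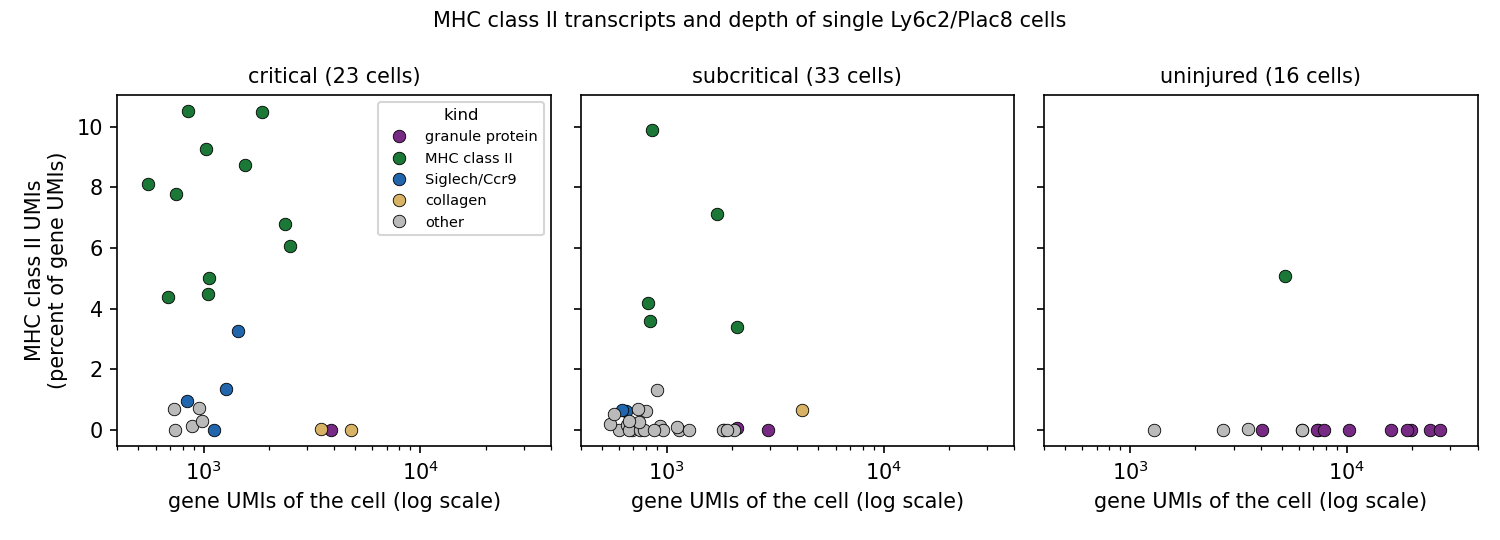
Share of each member's gene UMIs that came from Cd74, H2-Aa, H2-Ab1 and H2-Eb1 (percent, vertical axis), 1 point per cell, for critical, subcritical and uninjured muscle, coloured by kind. Most cells lie either above 3% or near 0, with 1 critical and 1 subcritical cell between 1% and 3%. The class II-rich kind holds 11 critical, 5 subcritical and 1 uninjured cell, and 1 further critical cell above 3% was counted with the Siglech kind.

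The granule cells of uninjured muscle had the highest median depth of any kind, at 13061 UMIs. The 10 cells held 142260 of 167323 UMIs (85.0%), with 1562 UMIs of Elane (neutrophil elastase), 1543 of Prtn3 (proteinase 3), 1022 of Mpo (myeloperoxidase) and 407 of Ctsg (cathepsin G). They also held 504 of the 558 Ly6c2 UMIs of the uninjured members and 84 of the 95 F13a1 UMIs. Of the 10, 7 belonged to uninjured animal 2 and 3 had no hashtag. Every Nkg7 UMI of the members lay in granule cells. Outside the members, 1 barcode in critical, 7 in subcritical and 16 in uninjured muscle held at least 5 granule UMIs. Any comparison with uninjured members is thus mostly a comparison with granule cells.

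The share of Ly6c2/Plac8 cells among all barcodes did not differ detectably between the groups. They were 0.728% of barcodes in critical muscle (95% Clopper-Pearson interval 0.462% to 1.09%), 1.14% in subcritical muscle (0.784% to 1.59%) and 0.729% in uninjured muscle (0.417% to 1.18%). When every barcode was first thinned to 500 UMIs, the shares were 0.316%, 0.620% and 0.364%. Without the granule cells they were 0.696%, 1.03% and 0.273%, from 22, 30 and 6 cells.

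By animal, members were 4.38%, 0.494%, 2.88% and 1.58% of the tagged cells of the critical animals. The subcritical animals had 5.37%, 2.22%, 1.01% and 0.952%, and the uninjured animals 0%, 2.22%, 1.71% and 0%. The groups overlapped throughout, and 11 of the 13 tagged uninjured members came from animal 2. The tagged cells were 137, 405, 243 and 380 of 3161 critical barcodes by animal. They were 242, 361, 198 and 420 of 2902 subcritical and 30, 496, 117 and 185 of 2195 uninjured barcodes. Most barcodes thus had no single hashtag, while most members had one. Shares of tagged cells therefore lie above those among all barcodes and are not shares of all cells of an animal. Means were 2.33 ± 1.68% in critical, 2.39 ± 2.07% in subcritical and 0.982 ± 1.15% in uninjured animals (SD, n = 4 each). Critical minus subcritical was -0.05 percentage points (exact two-sided permutation test, p = 1, adjusted p = 1 over 6 comparisons). Critical minus uninjured was 1.35 points (exact permutation p = 0.257, adjusted p = 0.643) and subcritical minus uninjured 1.41 points (exact permutation p = 0.314, adjusted p = 0.643). The smallest p that 4 animals against 4 allow is 0.0286. With every barcode of at least 1000 UMIs thinned to that depth before the rule was applied, critical minus uninjured was -0.835 points (exact permutation p = 0.371) and subcritical minus uninjured -0.703 points (exact permutation p = 0.543), so the direction turned. With thinning to 500 UMIs these differences were -0.292 and 0.0152 points.

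**Figure D3:**
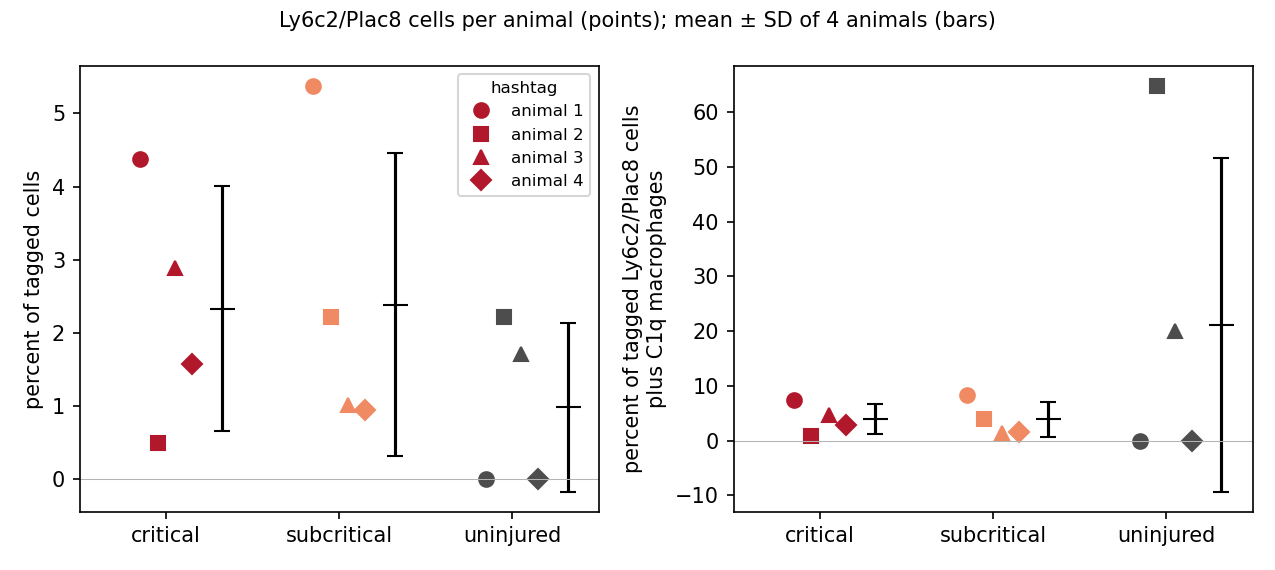
Ly6c2/Plac8 cells as a percentage of the tagged cells of each animal (points), with the group mean and SD (line and bar), for critical, subcritical and uninjured muscle. Points of the 3 groups overlap, with means of 2.33%, 2.39% and 0.982%.

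As a share of tagged Ly6c2/Plac8 cells and macrophages together, members were 3.95 ± 2.76% in critical, 3.84 ± 3.26% in subcritical and 21.2 ± 30.5% in uninjured animals (SD, n = 4 each). Macrophages here are barcodes with at least 4 C1q UMIs, of which critical muscle held 816, subcritical muscle 867 and uninjured muscle 30. The exact permutation tests of these shares gave p = 0.971 for critical against subcritical and p = 0.429 for each injury against uninjured (adjusted p = 1, 0.643 and 0.643). The uninjured mean rests on animal 2 at 64.7% and animal 3 at 20%, beside 0% in the others. After thinning to 1000 UMIs, with both classes chosen at that depth, the shares were 1.74 ± 1.21% in critical, 1.93 ± 2.88% in subcritical and 35.6 ± 22.9% in uninjured animals. Each uninjured animal then lay above every injured animal (exact permutation p = 0.0286 for each injury against uninjured, adjusted p = 0.0857 over 6 comparisons). After thinning to 500 UMIs the groups overlapped, with uninjured animal 3 at 0%. The exact permutation p was then 0.143 for each injury against uninjured (adjusted p = 0.429). The tagged macrophages of the uninjured animals were only 1, 6, 8 and 4 before thinning.

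Among the gene lists, MHC class II stood highest above subcritical levels in critical members by its median, while some single genes of other lists stood higher. With 1 library per group there is no test between libraries. Levels are CPM, a gene's UMIs scaled to the members' summed UMIs, folds are log2 ratios with 1 CPM added, intervals are exact 95% binomial intervals that cover counting error only, and a gene is called at a log2 fold of 1 or more in size. Of 1108 genes with at least 10 UMIs, 123 (11.1%) were higher and 176 (15.9%) lower in critical members, and the median over all was -0.07. Of the 10 class II genes 6 were measured, of which 5 were higher and none lower, with a median of 1.52 in the libraries' sums and 1.76 with every cell given the same weight.

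Cd74, the invariant chain that guides class II molecules to the endosome, had 620 UMIs in critical and 230 in subcritical members. That is 17572 against 5785 CPM, a log2 fold of 1.60 (1.38 to 1.83). The β chain gene H2-Ab1 had 167 and 42 UMIs (2.16, 1.67 to 2.69) and H2-Eb1 128 and 42 (1.78, 1.27 to 2.32). The α chain gene H2-Aa had 232 and 96 UMIs (1.44, 1.10 to 1.80). H2-DMb1, part of the peptide loading factor, had 12 and 5 (1.43, -0.17 to 3.29), an interval that includes no difference, and its partner H2-DMa 14 and 15 (0.07).

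Other cells of the 2 libraries did not show this shift. In C1q macrophages the log2 ratios of critical over subcritical were -0.23 for Cd74, -0.18 for H2-Ab1, -0.13 for H2-Aa and -0.22 for H2-Eb1. In cells that were neither members nor macrophages they ran from -0.55 for Cd74 to -0.62 for H2-Aa.

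By animal, Cd74 was at 21214, 29114, 21929 and 15563 CPM in critical members, against 218, 13519, 7712 and 10116 CPM in subcritical members. H2-Ab1 was at 6742, 9494, 5895 and 2980 CPM in critical members, against 0, 2666, 0 and 2168 CPM in subcritical members. In both genes every critical animal lay above every subcritical animal. For H2-Aa (5077 to 12025 CPM in critical, 0 to 6188 CPM in subcritical animals) and H2-Eb1 (3125 to 8861 CPM in critical, 0 to 3237 CPM in subcritical animals) the groups overlapped. Of 211 genes, 5 (2.37%) had all critical animals above all subcritical ones (Rpl12, Rps24, H2-Ab1, Cd74 and Rpl17), and 3 (1.42%) had them all below (Coro1a, Rps28 and Cox8a).

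**Figure D4:**
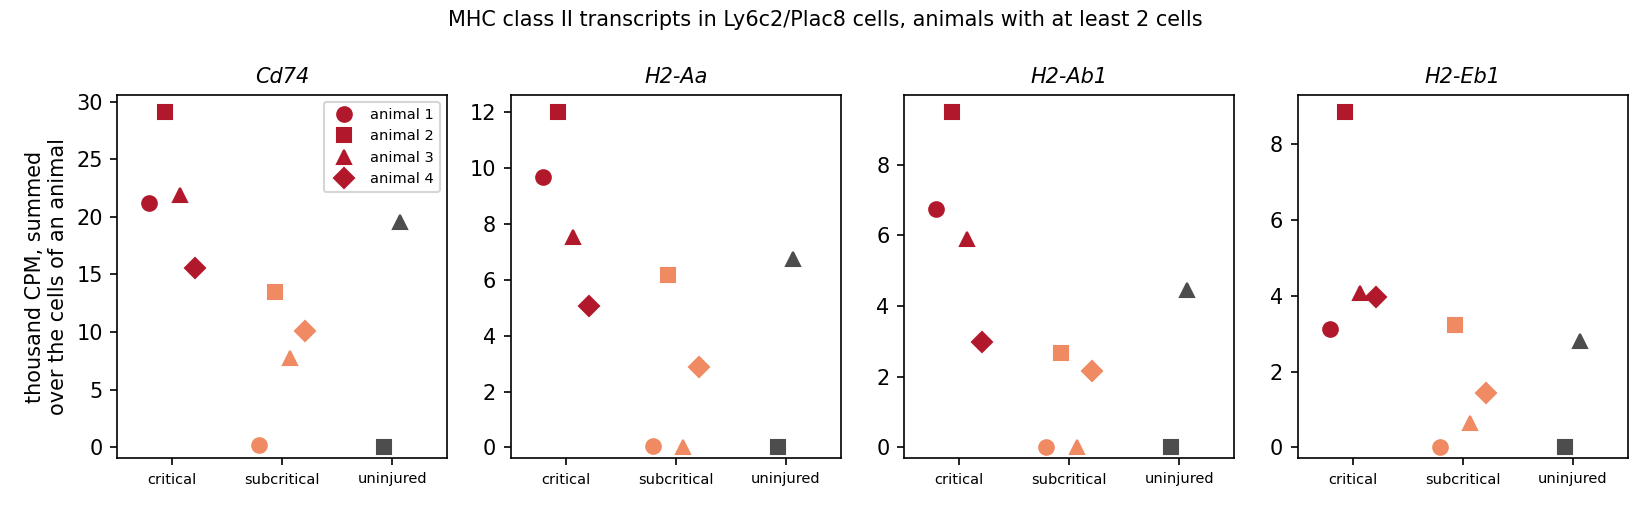
CPM of class II genes in the summed Ly6c2/Plac8 cells of each critical, subcritical and uninjured animal with at least 2 members (points). All 4 critical animals lie above the 4 subcritical animals for Cd74 and H2-Ab1, and subcritical animal 1 is near 0.

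Over animals the class II difference did not pass a test. The planned test needed 10 tagged members per animal, which only 2 animals had, so edgeR was fitted to the sums of the 10 animals with at least 2 members, a choice made after the counts were known. None of 211 genes (0%) was called between critical and subcritical animals at an adjusted p under 0.05, while 6 had an unadjusted p under 0.05 and DESeq2 called 0. Cd74 averaged 21955 ± 5558 CPM in critical and 7891 ± 5643 CPM in subcritical animals (SD, n = 4 each), with a fitted log2 fold of 1.46 ± 1.49 (SE) and an edgeR adjusted p of 0.988. H2-Ab1 gave 2.18 ± 1.65 (SE, edgeR adjusted p = 0.988). Subcritical animal 1, with 13 members and no class II-rich cell, weighed on the sums: without it, 1 of 6 class II genes was past the fold and their median was 0.65. Leaving out any other animal of the 2 groups left 5 past it.

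Monocyte genes ran the other way. Of 14 measured monocyte markers outside the rule 7 were lower in critical members and 1 higher, with a median of -1.10. F13a1, which codes for the coagulation factor XIII A chain and is typical of Ly6C-high monocytes, had 2 UMIs in critical and 22 in subcritical members (-3.26, -6.42 to -1.26). Haptoglobin, from Hp, had 2 and 18 UMIs (-2.98, -6.15 to -0.94). Emb, an adhesion glycoprotein, was the exception with 14 and 4 (1.97, 0.31 to 4.04). The rule genes Lyz2 (264 and 661 UMIs, -1.15) and Ly6c2 (27 and 68 UMIs, -1.16) lay lower in critical members too. Of the 22 subcritical F13a1 UMIs, 21 lay in the cells of none of the named kinds. Outside animal 1, the tagged subcritical members held 1 F13a1 UMI, in a cell of animal 4. Of the 18 subcritical Hp UMIs, 8 lay in 1 granule cell of animal 1, and the 2 critical Hp UMIs lay in the critical granule cell. Without subcritical animal 1, 4 of 9 measured markers were lower.

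Proliferation genes were also lower in critical members, in 6 of 7 measured and with a median of -1.99. Ube2c, a ubiquitin-conjugating enzyme of mitosis, had 0 UMIs in critical and 20 in subcritical members, at least 5.92-fold lower when the 0 is set to 3 UMIs over the library. Birc5, or survivin, had 0 and 11 UMIs (at least 3.25-fold lower). The whole list came to 42 UMIs in critical and 167 in subcritical members (1190 and 4200 CPM), against 1982 and 1619 CPM in macrophages of the same libraries. In critical members 23 of the 42 lay in a single granule cell. In subcritical members 138 of the 167 lay in animal 1, which also held the 3 granule cells with 54 of them. Without subcritical animal 1, 2 genes of the list were measured and neither was past the fold.

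Of 15 S100, annexin and galectin genes 6 were lower in critical members and none higher, with a median of -0.89 in the libraries' sums and -0.32 with every cell given the same weight. Of 9 adhesion and migration genes 2 were lower and none higher (median -0.18). S100a9, a calprotectin subunit, had 0 UMIs in critical and 25 in subcritical members (at least 7.40-fold lower), and S100a8 had 1 and 19 (-4.03, -9.45 to -1.42), but only 2 subcritical cells held either. Annexin A5, from Anxa5, had 12 and 28 (-1.05, -2.16 to -0.03), and its log2 fold was 0.30 among cells of none of the named kinds. Coro1a, which codes for the actin regulator coronin, had 29 and 77 UMIs (-1.24, -1.91 to -0.60). By animal it was at 633 to 1151 CPM in critical and 1333 to 2076 CPM in subcritical members, without overlap.

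Macrophage-type genes were mixed. Apoe, an apolipoprotein that macrophages make in quantity, had 74 UMIs in critical and 47 in subcritical members (0.83, 0.28 to 1.39). Selenop, a selenium carrier of resident macrophages, had 12 and 4 (1.75, 0.03 to 3.85), and the lysosomal protease gene Ctsl 16 and 6 (1.58, 0.16 to 3.23). Il10ra, a receptor chain for IL-10, had 10 and 2 UMIs (2.47, 0.26 to 5.72). Fabp5, a fatty acid carrier, had 1 and 11 (-3.24, -8.71 to -0.50). Gas6 (24 and 0 UMIs) and Fn1 (20 and 52 UMIs) each rested on 1 cell, which held 79.2% of the critical Gas6 and 73.1% of the subcritical Fn1. Without the members of most UMIs the log2 fold of Fn1 was 0.39, in place of -1.20. Of 18 lysosome genes 1 was past the fold.

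Of 11 glycolysis genes 4 were lower in critical members and 1 higher (median -0.47), with hexokinase 2 (Hk2) at 1 and 12 UMIs (-3.37) and Gpi1 at 9 and 23 (-1.18). Dissociation and stress genes went both ways, 2 higher and 2 lower of 16. The heat shock gene Hspa1a had 83 UMIs in critical and 34 in subcritical members (1.46, 0.87 to 2.08), and the immediate early gene Ier2 had 9 and 28 (-1.46, -2.73 to -0.34). Transcription factors of the myeloid lineage were past the fold in 0 of 11.

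Ribosomal and mitochondrial transcripts differed by library in all cells, not in members alone. Rps29 had 60 UMIs in critical and 181 in subcritical members (-1.42, -1.87 to -0.99), and its log2 ratio was -1.34 in macrophages and -1.30 in the remaining cells. Rps24 had 49 and 21 UMIs (1.39, 0.63 to 2.21), with 0.73 and 0.82 in those other cells, and Rps28 had 61 and 139 (-1.02), with -1.16 and -1.05. These 3 had the lowest p over animals: Rps29 averaged 2329 ± 1409 CPM in critical and 5050 ± 1376 CPM in subcritical animals (log2 fold -1.22 ± 0.35 SE, edgeR adjusted p = 0.446). Rps24 averaged 1432 ± 171 and 363 ± 290 CPM (SD, n = 4 each; 1.59 ± 0.48 SE, edgeR adjusted p = 0.446). Mitochondrially encoded genes were higher in 4 of 8, and made up 0.436% of UMIs in critical and 0.186% in subcritical members, against 0.419% and 0.211% in macrophages. Rpl12 (51 and 26 UMIs, 1.14) had a ratio of only 0.06 in macrophages and in the remaining cells.

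Against uninjured muscle, most measured interferon-stimulated genes were higher in members of both injured libraries, with and without the granule cells. Ifitm3, not counted among these genes, was past the log2 fold of 1 in neither injured library without the granule cells. Class II genes were higher and cell cycle genes lower as well, but in subcritical members neither held without the granule cells. Both comparisons use the same 16 uninjured members, 10 of them granule cells. Without those, the uninjured side is 1 class II-rich cell and 5 cells of none of the named kinds. Of 3024 genes, 362 (12%) were higher and 954 (31.5%) lower in critical members, with a median of -0.34. Of 3058 genes, 313 (10.2%) were higher and 778 (25.4%) lower in subcritical members, with a median of -0.24. Without the granule cells, 134 were higher and 162 lower of 820 in critical members, and 113 and 123 of 845 in subcritical members.

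All 6 measured class II genes were higher in critical members (median 4.30) and all 6 in subcritical members (median 2.46). H2-Eb1 had 128 and 42 UMIs in critical and subcritical members, and 22 in uninjured members, all in 1 cell. The log2 folds were 4.78 (4.13 to 5.51) for critical and 3.00 (2.23 to 3.82) for subcritical members. Without the granule cells, 4 of 6 class II genes were past the fold in critical members (median 1.74) and none of 6 in subcritical members (median 0.24). The subcritical folds were then 0.17 for Cd74, 0.47 for H2-Aa, 0.54 for H2-Eb1 and -0.13 for H2-Ab1. The whole uninjured class II signal was thus nearly that of the single class II-rich cell of animal 3.

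Interferon-stimulated genes were higher in 3 of 3 measured in critical members (median 3.39) and in 4 of 5 in subcritical members (median 3.97). Bst2, or tetherin, which also marks plasmacytoid dendritic cells, had 38 UMIs in critical, 26 in subcritical and 17 in uninjured members, with log2 folds of 3.39 (2.55 to 4.32) and 2.67 (1.75 to 3.66). The 4 cells of the Siglech kind held 3, 3, 11 and 5 of the critical Bst2 UMIs. In subcritical muscle the 2 cells of that kind held 2 and 6, and uninjured members had no such cell. Ifi27l2a had 50 UMIs in critical and 16 in uninjured members (3.88, 3.05 to 4.80). Irf7, the master regulator of type I interferon, had 15 UMIs in subcritical and 1 in uninjured members (5.76, 3.28 to 11.4), and the ubiquitin-like Isg15 had 11 and 2 (4.42, 2.34 to 7.75). Ifitm3, a membrane protein that blocks virus entry, had 83, 164 and 155 UMIs (1.34 and 2.15), and -0.31 and 0.61 without the granule cells. Ifitm3 was thus past the fold in neither injured library in that setting, and it is not counted in the interferon list. Of that list, 3 of 3 measured genes were higher in critical and 4 of 4 in subcritical members without the granule cells.

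Proliferation genes were lower in 18 of 19 in critical members (median -3.32) and in 10 of 19 in subcritical members (median -1.15). Pclaf, a partner of the sliding clamp PCNA, had 0 UMIs in critical, 1 in subcritical and 76 in uninjured members. Of the 1314 proliferation UMIs of uninjured members, 1272 lay in the 10 granule cells, so that these counts move with the granule cells. Without those cells, 4 of 5 measured genes of the list were higher in subcritical members, and the only gene measured in critical members was lower. The 4 granule genes themselves were lower in 4 of 4 in critical and 3 of 4 in subcritical members.

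Among monocyte markers outside the rule, 9 of 16 were lower and 2 higher in critical members (median -1.29), and 3 of 17 lower and 4 higher in subcritical members (median 0.11). Chil3, a chitinase-like protein of marrow monocytes, had 1 UMI in critical, 5 in subcritical and 66 in uninjured members (-3.75 and -1.64). F13a1 had 2 UMIs in critical and 95 in uninjured members (-3.30, -6.39 to -1.43). Of the chemokines, Ccl6 had 18, 24 and 11 UMIs (2.94 and 3.18), and Ccl4 had 8, 2 and 98 (-1.37 and -3.52), with 66.3% of the uninjured Ccl4 in 1 cell. Apoe had 74, 47 and 38 UMIs (3.20 and 2.37) and the endosomal gene Cd68 14, 13 and 11 (2.58 and 2.30). Without the granule cells none of Ccl6 (0.52 and 0.81), Apoe (0.63 and -0.085) and Cd68 (0.67 and 0.50) was past the fold. Ccl4 in critical members was at 0.13 without uninjured animal 3. Lysosome genes were higher in 5 of 18 in critical and 7 of 19 in subcritical members, and in 2 of 17 in each without the granule cells.

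Over animals, only uninjured animals 2 and 3 had at least 2 members. edgeR called 0 of 211 genes (0%) between critical and uninjured animals, with 18 at an unadjusted p under 0.05 and 1 called by DESeq2. The lowest edgeR adjusted p was 0.351, for Rpl38 and Bst2. Bst2 averaged 1428 ± 800 CPM in 4 critical and 60.6 ± 85.7 CPM in 2 uninjured animals (SD). Between subcritical and uninjured animals edgeR called 1 of 211 genes (0.474%), Rps24, at 710, 381, 0 and 361 CPM in subcritical against 3444 and 4448 CPM in uninjured members (log2 fold -2.98 ± 0.51 SE, adjusted p = 0.0180). The call was lost without subcritical animal 2 or 4. Rps24 was lower in subcritical muscle in other cells as well, with log2 ratios of -2.12 in macrophages and -1.05 in cells of neither class.

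Surface protein was read as each antibody's share of the panel counts of an animal's members. These counts were low: critical members held 1232 in all, subcritical members 2611 and uninjured members 12512, of which 10979 lay in 1 cell. edgeR called 0 of 96 antibodies (0%) between critical and subcritical animals, with 4 at an unadjusted p under 0.05, and DESeq2 called 0. CD39, an enzyme that breaks down extracellular ATP, had the lowest p. It was at 2.91%, 2.47%, 2.96% and 2.45% in critical members, against 1.09%, 1.22%, 0.714% and 0.303% in subcritical members, without overlap (log2 fold 1.38 ± 0.53 SE, edgeR adjusted p = 0.862). CD39 was the only antibody of 96 (1.04%) with all critical animals above all subcritical ones, and 2 (2.08%), CD83 and Tim-3, had them all below. I-A/I-E averaged 2.76 ± 1.74% in critical and 0.798 ± 0.781% in subcritical animals (SD, n = 4 each; 1.13 ± 0.57 SE, edgeR adjusted p = 0.939). Ly-6C averaged 0.763 ± 0.614% in critical and 0.922 ± 0.667% in subcritical animals.

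Summed over cells, class II-rich cells of both injured libraries had more I-A/I-E counts per cell than cells of none of the named kinds, a readout the kinds had not used. In cells with fewer than 500 antibody counts, class II-rich cells held 2.18 I-A/I-E counts each in critical muscle (exact Poisson interval 1.40 to 3.25, 24 counts in 10 of 11 cells). In subcritical muscle they held 2.6 each (1.38 to 4.45, 13 counts in 5 of 5 cells). Cells of none of the named kinds held 0.400 (0.0484 to 1.44) in critical and 0.318 (0.128 to 0.656) in subcritical muscle. The single class II-rich cell of uninjured muscle held 0 I-A/I-E counts among 60 antibody counts (0 to 3.69). The intervals of the 2 kinds do not overlap in subcritical muscle and overlap slightly in critical muscle. They cover counting error only, over cells pooled without regard to animal, and no test was made. Subcritical animal 1 gave 10 of the 22 cells of none of the named kinds and no class II-rich cell. Subcritical animal 2 gave 3 of the 5 class II-rich cells. Ly-6C counts were 0.727 per cell in critical members with a Ly6c2 UMI and 0.250 in those without, and 1.22 and 0.600 in subcritical members. These intervals overlap in both libraries.

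Set against the C1q macrophages of the same 8 injured animals, Ly6c2/Plac8 cells carried less CD206, CD63 and CD14 and more CD24 and Ly-6C. CD63 and CD14 had only 5 and 3 counts in the Ly6c2/Plac8 cells. edgeR with the animal as a block called 14 of 138 antibodies (10.1%), 12 lower and 2 higher in Ly6c2/Plac8 cells, with 30 at an unadjusted p under 0.05. The fit used all 8 animals, with 2 to 13 members each, since the planned 10 were not reached. Members carried fewer antibody counts in total, with 40.5 to 84.6 counts per cell by animal, against 149 to 203 in macrophages, and 692 to 1818 gene UMIs per cell against 1472 to 2218. Each value is a share of the panel, not a count per cell.

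CD206 was lower in members in 8 of 8 animals. It made up 2.18%, 0%, 2.96% and 2.15% of panel counts in members of critical animals and 2.18%, 1.98%, 0% and 1.82% in members of subcritical animals. In macrophages of those animals it made up 2.95%, 4.14%, 5.81% and 3.38% in critical and 3.52%, 3.72%, 2.95% and 2.56% in subcritical muscle. The log2 fold was -1.30 ± 0.32 (SE, edgeR adjusted p = 0.00373), and it was called under every alternative run, between -1.84 and -1.06. Mrc1, the gene of CD206, was no part of the rule.

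Ly-6C was higher in members, at 0.842 ± 0.599% of panel counts, against 0.327 ± 0.067% in macrophages (SD, n = 8 animals, higher in 7). Its log2 fold was 1.14 ± 0.38 (SE, edgeR adjusted p = 0.0351). The call was lost with scaling to gene UMIs (0.62, edgeR adjusted p = 0.215) or to isotype controls, and without critical animal 1 or 3 or subcritical animal 1. CD24 was higher too, at 0.694 ± 0.906% in members, against 0.133 ± 0.030% in macrophages (higher in 6 of 8 animals, log2 fold 1.68 ± 0.49 SE, edgeR adjusted p = 0.0137). Without critical animal 3 its fold was 0.95 (edgeR adjusted p = 0.352). That animal gave the granule cell of the critical library, and whether this cell carried the CD24 counts was not tested.

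**Figure D5:**
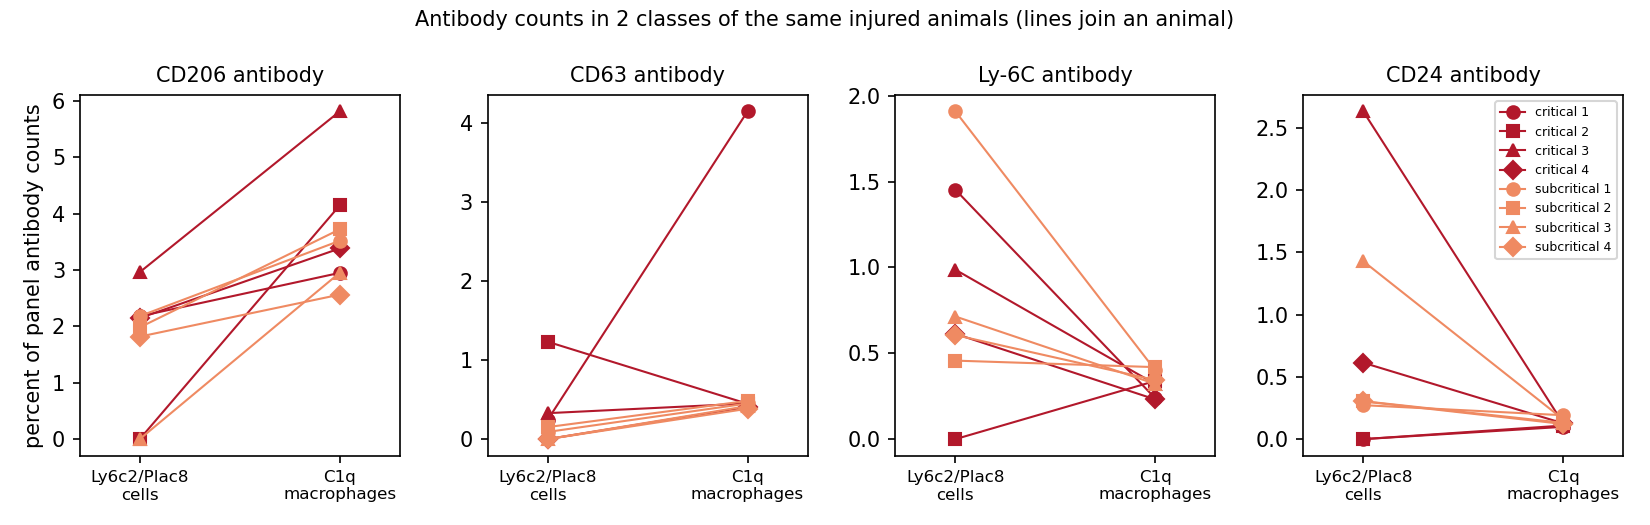
Share of panel antibody counts (percent) in Ly6c2/Plac8 cells and in C1q macrophages of the same animal, joined by a line, for the 8 injured animals. CD206 is lower in members in 8 of 8 animals, and Ly-6C is higher in 7 of 8.

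Of the other antibodies that were lower in members, CD63 was at 0.256% in members and 0.900% in macrophages (-2.76 ± 0.53 SE, edgeR adjusted p = 9.2e-05, lower in 7 of 8 animals). Macrophages of critical animal 1 had 4.15%, and without that animal the fold was -1.83 (edgeR adjusted p = 0.0613). Lower in members on the log2 scale were the endotoxin co-receptor CD14 by 2.36, the ectoenzyme CD38 by 2.05 and the lysosomal protein CD107a by 1.77. The integrin α6 chain CD49f was lower by 1.11, and CD39 and the Fc receptors CD16/32 by 1.06 each. CD14 and CD107a had only 3 and 5 counts in members, with CD14 found in subcritical animal 1 alone. Macrophages of critical animal 1 had 11.3% CD38, against 3.05% or less elsewhere. CD39 was lower in members of every subcritical animal, but higher in critical animals 1 and 3 (2.91% and 2.96%, against 2.00% and 2.35%). CD49f was higher in members of critical animals 1 and 2. Per the labels an Fc blocking antibody was added before staining, so CD16/32 binding may not follow the protein. GITR, MAdCAM-1 and TCR Vγ1.1 had 0, 1 and 1 counts in members, and CD45.2 fell by 0.86 (edgeR adjusted p = 0.0496). Without macrophages whose antibody counts were at least 1000 and mostly of 1 antibody, 11 were called, and TCR Vγ1.1 was not among them (edgeR adjusted p = 0.261).

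Several lineage antibodies did not pass the test. I-A/I-E gave -0.93 ± 0.34 (SE, edgeR adjusted p = 0.0747). CCR2 was at 3.54% in members and 1.83% in macrophages, higher in 7 of 8 animals (0.43, edgeR adjusted p = 0.397). F4/80 gave -0.97 (edgeR adjusted p = 0.157), CX3CR1 -0.87 (edgeR adjusted p = 0.147), and CD64 -0.72 (edgeR adjusted p = 0.120).

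In RNA, which chose both classes, members differed from these macrophages as follows, given without a test as means over the tagged cells of the 8 injured animals. Plac8 was at 2634 CPM in members and 11.5 CPM in macrophages, and Ly6c2 at 1217 and 1.54 CPM. Genes outside the rule with the highest ratios were Elane, Mpo, Prtn3 and Ctsg, each higher in 2 or 3 of the 8 animals, followed by Ly6d, Cd7, Nkg7, Pglyrp1 and Klk1. Genes with the lowest ratios besides C1q were Lpl (0 and 564 CPM), which codes for lipoprotein lipase, the complement receptor gene C3ar1 (0 and 503 CPM) and the scavenger receptor gene Stab1 (0 and 404 CPM). Ccl8, Acp5, Folr2 and Retnla were also at 0 in the tagged members. Apoe was at 2835 CPM in members and 21987 CPM in macrophages and Spp1, or osteopontin, at 37.4 and 3598 CPM. Cd74 stood at 14923 ± 9132 CPM in members and 12995 ± 2575 CPM in macrophages, and Lyz2 at 16776 ± 9986 and 23118 ± 3236 CPM (SD, n = 8).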

How the data were processed

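The authors deposited 3 matrices of raw UMI and antibody tag counts, 1 per group, with 32285 genes, 138 panel antibodies (3 of them isotype controls) and 4 hashtags. Per the file headers they came from cellranger 6.0.2, and the submitters' processing notes name Cell Ranger, bcl2fastq and the GRCm39 (mm39) genome. No values were normalized before deposit. The depth of a library was 7138662, 4954129 and 5681346 UMIs (critical, subcritical, uninjured).

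Members, marker lists and kinds were chosen with earlier results of these data known. Hashtags were called by a mixture model per hashtag, and a lowest count of 3 was set after the hashtag counts were seen. No doublet caller was run, and 2 members carried several hashtags. Macrophages had at least 4 C1q UMIs, at least 3 of Tyrobp, Fcer1g and Lyz2, and at most 2 of the 4 neutrophil genes.

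The planned edgeR test over animals with at least 10 members could not be made, so members were summed per library: CPM, log2 folds with a pseudocount of 1 CPM, genes with at least 10 UMIs over both libraries, exact 95% intervals. These cover counting error only. Fits over animals with at least 2 members (edgeR 4.0.16 quasi-likelihood, TMM, filterByExpr; DESeq2 1.42.0 as an alternative; R 4.3.3) and the antibody fits were added after the counts were seen, with Benjamini-Hochberg adjusted p under 0.05 as the threshold. Antibodies needed at least 20 counts in a fit. Values without granule cells were also added after the counts were seen. The code was tested on simulated data. Labels say that hashtags mark separate animals.

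Genes are named by a rule: in each list the 2 members with the largest fold in each direction whose interval excludes 0, every antibody called, lineage antibodies, the 5 best by p in fits with few calls, and the 15 highest and lowest against macrophages, of which those at 0 or outside the rule are printed. Psap, Arhgdib, Cd63, Btg2, Fos, Ly6d and a few others under that rule are left to the counts of their lists. H2-Aa, Cd74, H2-DMa, H2-DMb1, Coro1a's animal values and the genes printed for the kinds were chosen after their values were seen.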

Additional observations from a re-analysis of the deposited data

Results flagged for a closer look

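In 7 of 72 groups of 4 animals looked at, 1 animal stood apart from the other three by Dixon's gap criterion, which chance gives in about 1 group in 20. None of these was weighed further. H2-Eb1 was highest in critical animal 2, at 8861 CPM, which had only 2 members. Fn1 was highest in subcritical animal 2, at 3808 CPM, where a single cell held most of it. Rps29 was highest in that same critical animal 2, at 4430 CPM. Among antibodies, the CD206 share was lowest in subcritical animal 3, at 0%, and the F4/80 and CD24 shares were each highest there, at 1.43%. The CD14 share was highest in subcritical animal 1, at 0.273%. Subcritical animal 3 had 2 members.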

How the results depend on the processing

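Few cells, shallow counts and 1 library per group limit every value here, and most counts of genes depend on which members and animals are kept. The cause of no change below was tested, apart from settings that leave out genes, members or animals by construction. Genes past the log2 fold between critical and subcritical libraries were 299, and 5409 without the low-count filter, 115 with the rule after thinning to 1000 UMIs, 138 among cells of none of the named kinds, and 212 to 313 leaving out each animal. Between critical and uninjured they were 1316, and 7218 without the filter, 346 without members holding 2 or more lymphoid or plasmacytoid marker UMIs, 296 without granule cells, 130 among cells of none of the named kinds, and 351 (without uninjured animal 2) to 1379 leaving out each animal. Between subcritical and uninjured they were 1091, and 6635, 253, 236 and 162 in those settings, and 318 to 1233 leaving out each animal. In edgeR over animals, critical against subcritical gave 0 to 1 genes leaving out each animal. Critical against uninjured gave 1 with DESeq2, 1 without the filter, and 0 to 3 leaving out each animal. Subcritical against uninjured gave 2 with DESeq2, 0 with hashtags called by share, 0 without members holding lymphoid or plasmacytoid markers, and 0 to 4 leaving out each animal. Antibodies between critical and subcritical animals stayed at 0 leaving out each animal.

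Log2 folds that turned were those of Psap (-0.51, and 0.17 with the rule after thinning to 1000 UMIs), Fn1 (-1.20, and 0.39 without the 5% of members with the most UMIs, and -1.93 to 0.47 leaving out each animal, highest without subcritical animal 2) and Anxa5 (-1.05, and 0.30 among cells of none of the named kinds). Against uninjured members, without the granule cells, Ifitm3 turned to -0.31 in critical members, H2-Ab1 to -0.13 and Apoe to -0.085 in subcritical members, and 4 proliferation genes were then past the fold in subcritical members, all higher. Leaving out uninjured animals 2 and 3 in turn, Ccl4 ran from -3.40 to 0.13 in critical and H2-Ab1 from -0.29 to 7.18 in subcritical members. The library shares were 0.348%, 0.497% and 0.364% in critical (1000 UMIs), subcritical (1000 UMIs) and uninjured (500 UMIs) muscle after thinning, with 0.316% and 0.620% at 500 UMIs in critical and subcritical muscle. The critical share was 0.411% with at least 3 UMIs of Ly6c2 and Plac8 and 0.348% with Ly6c2 required. The uninjured share was 0.319% without members holding lymphoid or plasmacytoid markers and 0.273% without granule cells. Leaving out each animal, the differences between animals ran from -0.74 to 0.94 points for critical minus subcritical, 0.669 to 1.96 for critical minus uninjured and 0.411 to 1.88 for subcritical minus uninjured. After thinning to 1000 UMIs the last pair were -0.835 and -0.703. As a share of members and macrophages the ranges were -1.05 to 1.62, -24.3 to -2.72 and -24.4 to -2.82, and thinning to 1000 UMIs gave -33.9 for critical and -33.7 for subcritical minus uninjured, each with an exact permutation p of 0.0286. Thinning to 500 UMIs gave -28.2 and -27.9, each with an exact permutation p of 0.143.

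Hashtag numbers do not pair animals of different groups. No paired analysis was possible because the groups share no animals or batches; only the fit against macrophages has a block, the animal. Its 14 antibodies were 9 with no animal block, 39 with scaling to gene UMIs, and 6 to 14 leaving out each animal, with 6 without subcritical animal 3. A minimum of 20 members per animal was not run, since no animal had so many.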
